A study of Mus musculus with 4 samples.

Results

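The cytosolic ribosomal protein genes described here are the 84 genes on the array whose symbol starts with Rpl or Rps followed by a digit, out of 20886 named genes. The 10 Rps6k kinase genes, 3 pseudogenes marked -ps and the mitochondrial ribosomal protein genes were left out. Of the 84 genes, 72 encode core proteins of the ribosome (42 of the large and 30 of the small subunit), 8 are paralogues or variants of a core gene, and 4 are retrocopies or a binding protein that carries the prefix (Rpl32l, Rpl37rt, Rps23rg1 and Rps19bp1). Rps19bp1 encodes a protein that binds Rps19 and is not a part of the ribosome. The reference holds 85 protein-coding symbols of this form, and 2 of them, Rpl37 and Rps27rt, had no probe matched to them.

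Cardiomyocytes differentiated from CGR8, a mouse embryonic stem cell line, were transfected for 48 hours with the Pepmute agent and profiled on 1-colour (Cy3) Agilent arrays. The siScr group received a scrambled small interfering RNA and the siErbB4 group one against Erbb4, which encodes a receptor tyrosine kinase for neuregulins, and each group held 2 samples. Both groups shared the cell line, DMEM-LG medium with 2% serum and the transfection agent. The comparison asks what differed in these cells after the knockdown. The labels name no selection of cardiomyocytes and no transgene, and they do not say which of the 2 incubation times they list applied to which sample. In the description field, both siErbB4 samples carry the wording of the scrambled control, and siErbB4 replicate 2 is given as ErbB5 in its source name. The groups follow the titles and the transfection field, which do not differ from each other.

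A ribosome joins a large subunit, which forms the peptide bonds, to a small subunit, which reads the messenger RNA. The core proteins are needed in nearly fixed proportion, their messenger RNAs are among the most abundant in most cells, and their translation is set as a class by the mTOR pathway through an oligopyrimidine tract at the start of the transcript. A few core proteins have paralogues with restricted expression, among them Rpl3l, which takes the place of Rpl3 in heart and skeletal muscle, and Rpl39l and Rpl10l, which are best known from male germ cells.

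The promoters of Rpl3l and of the 2 paralogues with the highest differences between the groups are shown beside those of their core partners, because the core genes and these paralogues differ in where they are known to be expressed. Each sequence is the 100 bases before the first annotated start of the gene, 5′ to 3′ on the strand of the gene, from RefSeq on assembly GRCm38.p6, with capitals marking a match to CCGGAA (the core of ETS factor sites) or to the TATA box letters TATAAA. The promoter of Rpl3 was not in the table used.
Rpl3l, chr17:24727726-24727825, plus strand: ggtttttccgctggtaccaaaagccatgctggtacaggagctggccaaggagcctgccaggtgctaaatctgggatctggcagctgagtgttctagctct
Rpl39l, chr16:10170128-10170227, plus strand: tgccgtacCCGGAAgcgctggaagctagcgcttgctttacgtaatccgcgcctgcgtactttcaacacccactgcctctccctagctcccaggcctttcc
Rpl39, chrX:37085223-37085322, minus strand: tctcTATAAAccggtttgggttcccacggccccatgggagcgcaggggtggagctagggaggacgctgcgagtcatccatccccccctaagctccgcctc
Rpl10l, chr12:66284402-66284501, minus strand: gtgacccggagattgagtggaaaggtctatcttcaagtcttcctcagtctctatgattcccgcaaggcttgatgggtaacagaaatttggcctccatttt
Rpl10, chrX:74270716-74270815, plus strand: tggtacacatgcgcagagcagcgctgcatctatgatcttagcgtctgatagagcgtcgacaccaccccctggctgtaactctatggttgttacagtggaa

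In the longer window of 250 bases before each start, read for 64 of the 84 genes (76 windows), CCGGAA on either strand was present in 23 genes, or 35.9%, against 13.6% of the 27025 genes with a window. GGGCGG (the core of Sp1 sites) was present in 48.4% against 35.4% and TATAAA in 7.81% against 14.3%. CACGTG (an E-box) was present in 7.81% against 6.86%, CATTCC (the M-CAT element of muscle genes) in 9.38% against 14.4%, and AAGATGGC (the core of YY1 sites) in 4.69% against 1.83%. All motifs were searched on both strands, and the matches of different motifs were counted apart, whether or not they overlapped. The windows of the ribosomal protein genes held a median of 15.5 CpG dinucleotides against 6.0 over all genes, and a median G+C content of 56.4% against 52.0%. The window of Rpl3l held none of the 6 motifs and 2 CpG dinucleotides, whereas that of Rpl39l held CCGGAA and 12 CpG dinucleotides. That of Rpl10l held GGGCGG and 8, that of Rpl10 both CCGGAA and GGGCGG and 13, and that of Rpl39 held TATAAA and 12. A match describes these letters and no binding.

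Levels are log2 of the background-subtracted signal minus the array's 75th percentile, so that a level of 0 is the signal below which 75% of probes lie. The 75th percentile was 878 to 989 across the arrays, 64.8% to 68.5% of probes were well above background, and all 4 arrays lay on 1 slide. The Erbb4 probe gave signals of 9.02 and 11.9 on the siScr arrays and 2.83 and 15.0 on the siErbB4 arrays and was well above background on 1 of 4, so it gives no check of the knockdown. The 12 cardiomyocyte markers were well above background on every array, with a summed level of 10.51 and 10.94 on the siScr arrays and 10.48 and 10.79 on the siErbB4 arrays. Of the 8 skeletal muscle markers, Actn3, Acta1, Tnnt3, Tnni2 and Mybpc2 were well above background on all 4 arrays, Ckm on 2, and the regulators Myod1 and Myog on none, with a summed level of 4.29 and 3.14 in siScr and 3.82 and 3.23 in siErbB4. Summed fibroblast markers were lower on replicate 2 than on replicate 1 of both groups (5.33 and 3.25 in siScr, 4.54 and 2.89 in siErbB4), and summed proliferation markers were higher (3.89 and 5.24, 4.18 and 5.32). Nothing in the labels says that replicates came from separate cultures, so every p-value here reflects only how far these particular samples spread. A lower level in bulk RNA can come from fewer cells of a type or from less RNA per cell, and these cannot be told apart.

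All 84 genes were well above background on all 4 arrays, and all entered the test. Brightness depends on the probe as well as on the RNA, so levels of different genes are given as ranges and are not ranked. The 72 core genes had mean levels of 4.20 to 7.91. The median level of the core genes was 6.65 and 6.71 on the siScr arrays and 6.61 and 6.63 on the siErbB4 arrays, with interquartile ranges of 1.22, 1.29, 1.24 and 1.34 in the same order. With this scaling both siErbB4 medians lay below both siScr medians, and the widths of the distributions were alike on the 4 arrays. Medians over all 84 genes were 6.46 and 6.39 in siScr and 6.33 and 6.31 in siErbB4. Their SD between arrays of a group was 0.0358, a value that rests on 2 arrays a group. The median difference of the core genes was -0.054 with this scaling and 0.013 with quantile normalization. The 84 genes made up 6.25% and 6.01% of the summed signal of tested features on the siScr arrays and 6.27% and 5.88% on the siErbB4 arrays, which overlapped.

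**Figure D1:**
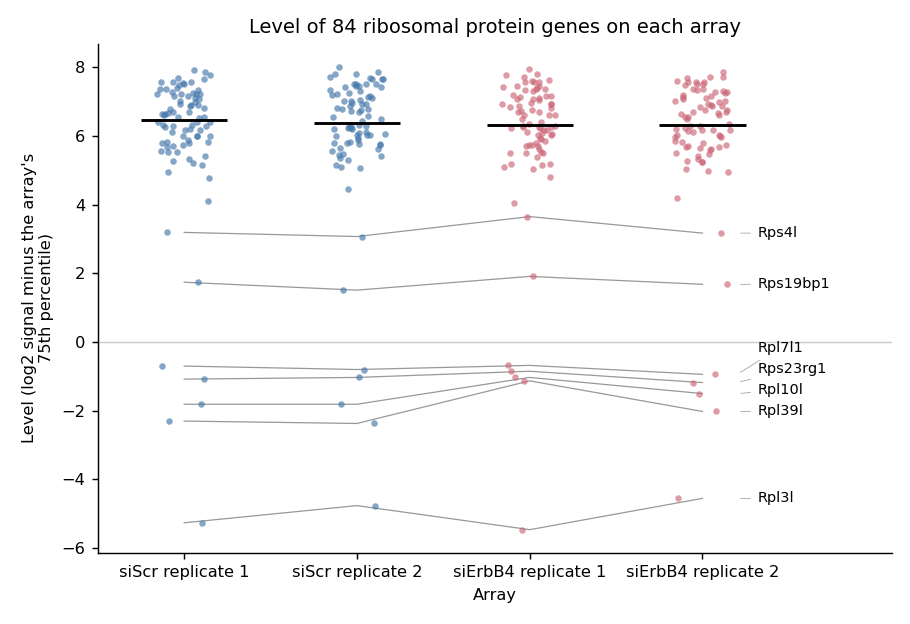
Level of each of the 84 genes on each array (y axis, log2 scale relative to the 75th percentile of that array), with 1 point per gene and a bar at the median of each array. The medians were 6.46, 6.39, 6.33 and 6.31 from left to right, and lines follow the named genes of low level, of which Rpl3l lay between -5.46 and -4.55.

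None of the 84 genes passed the test between siErbB4 and siScr. In limma with Benjamini-Hochberg adjustment over 20726 features, 0 of the 84 and 0.0% of all features were called at an adjusted p of 0.05, and every one of the 84 had an adjusted p of 1.0. At an unadjusted p of 0.05, 0 of the 84 and 366 of all features passed. The median SE of a log2 difference was 0.132 over the 84 genes against 0.177 over all features, with 2 arrays a group. The differences of the 84 genes were small: 63 of them (75%) were under 0.1 in size on the log2 scale, against 39.9% of all features, and 1 (1.19%) reached 0.58, against 3.31%. Their median size was 0.0561 against 0.129 over all features. Among the 1753 features at a mean level of 4 or more it was 0.0808, and among the 77 ribosomal protein genes at such a level it was 0.0540. Differences under 0.1 in size made up 59.1% of the former and 77.9% of the latter. Those of 0.58 or more made up 0.057% and 0.0%.

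The sign of these small differences depended on how the arrays were scaled. With the 75th percentile, 69 of the 84 genes had a negative difference (82.1%, against 52.8% of all features). At a level of 4 or more, 1150 of 1753 features and 68 of 77 ribosomal protein genes did. The median over the 84 genes was -0.053, against -0.014 over all features and -0.044 over features at a level of 4 or more. With quantile normalization 30 of 84 (35.7%) were negative, with a median of 0.016. Scaled to the array median, 60 were negative with a median of -0.026, and after normexp background correction 66 were negative with a median of -0.060. Over the 4 scalings 30 genes were negative and 13 positive under every one, and 41 had both signs.

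**Figure D2:**
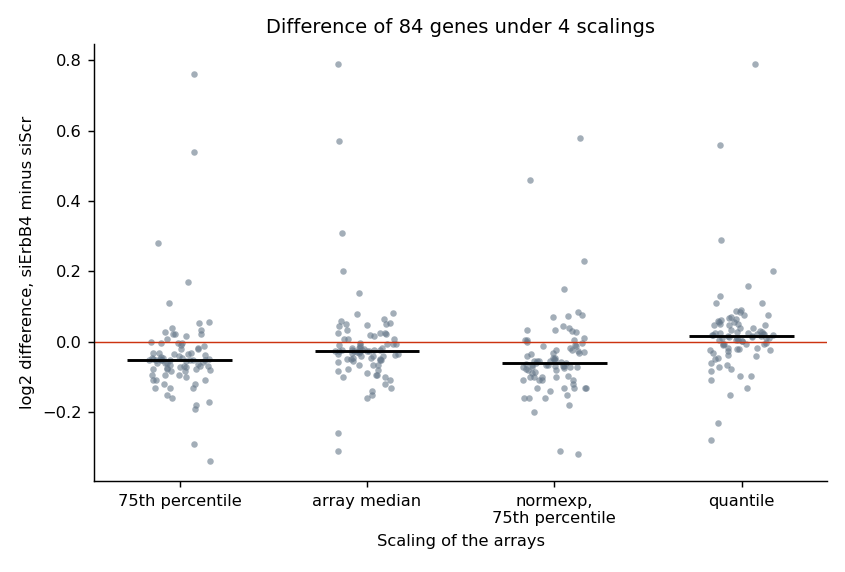
Difference of each of the 84 genes between siErbB4 and siScr (y axis, log2) under 4 ways of scaling the arrays (x axis), with 1 point per gene and a bar at the median. The median was -0.053 with the 75th percentile, -0.026 with the array median, -0.060 after normexp and 0.016 with quantile normalization, so its sign turned with the last.

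Both siErbB4 arrays lay below both siScr arrays for 28 of the 84 genes (33.3%), against 15.9% of all features and 22.1% of features at a level of 4 or more. Both lay above for 3 (3.57%, against 13.1% and 6.85%), which were Rpl39l, Rpl10l and Rpl11. With quantile normalization the counts were 2 below (2.38%, against 13.7% of all features) and 5 above (5.95%, against 14.4%). After normexp they were 34 below (40.5%, against 16.3%) and 3 above (3.57%, against 11.3%). With the array median they were 20 below (23.8%, against 12.7%) and 7 above (8.33%, against 16.3%). The count below was 55 without siScr replicate 1, where 36.3% of all features lay so, and 55 without siErbB4 replicate 1, where 32.9% did. These were the highest counts among the fits that left out an array, and their range is given in the last section. The 28 genes were all core genes, 17 of the large and 11 of the small subunit. The median difference was -0.053 in the 42 large-subunit genes, of which 37 were negative, and -0.055 in the 30 small-subunit genes, of which 28 were negative. With quantile normalization both medians were 0.013, with 18 and 9 genes negative, so the medians of both subunits lay close together under either scaling.

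**Figure D3:**
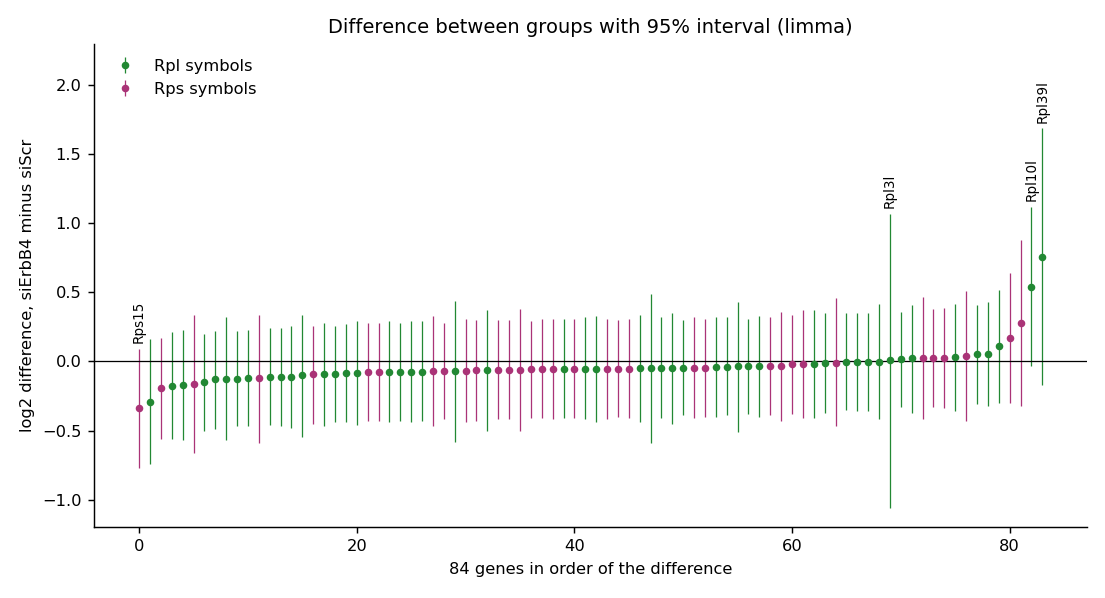
Difference between siErbB4 and siScr (y axis, log2 with the 75th percentile scaling) for each of the 84 genes in order (x axis), with 95% intervals from limma. All 84 intervals include 0, from Rps15 at -0.34 to Rpl39l at 0.76, and the interval of Rpl3l, from -1.06 to 1.07, is the widest.

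In the large subunit, the proteins around the peptidyl transferase centre and the stalk base (Rpl3, Rpl8, Rpl10 and Rpl12) had a median difference of -0.079, and all 4 were negative, of which 1 was positive with quantile normalization. Rpl3, whose protein reaches towards the peptidyl transferase centre, had levels of 6.29 and 6.28 on the siScr arrays and 6.02 and 6.22 on the siErbB4 arrays. The groups did not overlap, with siErbB4 replicate 1 the lowest. The difference was -0.17 ± 0.15 (SE, n = 2 per group, limma adjusted p = 1.0). With quantile normalization it was -0.098, and the groups overlapped. Of the 9 proteins that line the peptide exit tunnel or its rim, 8 had a negative difference with the 75th percentile and 1 with quantile normalization, with medians of -0.046 and 0.028. Rpl4, which forms part of the tunnel's narrow part, had a difference of -0.13 ± 0.16, and Rpl39, a short protein of the tunnel wall, one of -0.0031 ± 0.13, which was 0.047 with quantile normalization. Rpl5 and Rpl11 form with 5S RNA the particle that binds the p53 regulator Mdm2 when assembly is disturbed, and with Rpl23, which also binds Mdm2, they had a median difference of -0.018, or 0.022 with quantile normalization. Their differences were -0.018, 0.017 and -0.050, each under its SE of 0.14, 0.13 and 0.14.

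Rpl28, a large-subunit protein, had levels of 5.27 and 5.10 on the siScr arrays and 5.03 and 4.98 on the siErbB4 arrays. The siErbB4 arrays were the lower ones without overlap, and replicate 2 lay below replicate 1 in each group. The difference was -0.18 ± 0.14, a fold of 0.885 (limma, adjusted p = 1.0), and it was negative over the 4 scalings. With quantile normalization it was -0.13, and the groups overlapped. Rpl13a, which is also known from silencing of inflammatory transcripts by the GAIT complex, had a difference of -0.15 ± 0.13, and Rpl15 one of -0.11 ± 0.13. Rpl14 had the highest difference of the core genes at 0.11 ± 0.15, with levels of 6.65 and 6.87 in siScr and 6.88 and 6.87 in siErbB4. It was siScr replicate 1 that stood apart there. The other probe of Rpl14 gave -0.11, with signals of 1380 to 1620 beside 99400 to 111000, and the mean of both probes gave -0.00092.

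In the small subunit, Rps15, a protein of the head near the decoding site, had the most negative difference of all 84 genes. Its levels were 6.12 and 5.87 on the siScr arrays and 5.62 and 5.70 on the siErbB4 arrays. Both siErbB4 arrays lay below both siScr arrays, which differed from each other by 0.25. The difference was -0.34 ± 0.16 (SE, n = 2 per group), a fold of 0.791, with a 95% interval of -0.77 to 0.093, an unadjusted limma p of 0.0952 and an adjusted p of 1.0. It was -0.28 to -0.34 over the 4 scalings and -0.21 without siScr replicate 1. Rps2, at the entry of the messenger RNA channel, had levels of 6.91 and 6.81 against 6.70 and 6.64, without overlap, and a difference of -0.19 ± 0.13. With quantile normalization the difference of Rps2 was -0.11, and the groups overlapped. Rps15 and Rps2 belong to the 6 listed proteins of the messenger RNA channel and decoding site. Of these, 5 were negative and 3 had both siErbB4 arrays below both siScr arrays, beside 15.9% of all features. With quantile normalization 3 of the 6 were negative, and the groups did not overlap in 1 lower and 1 higher gene, beside 13.7% and 14.4% of all features.

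Rps6, the substrate of S6 kinase downstream of mTOR, had levels of 6.60 and 6.49 in siScr and 6.48 on both siErbB4 arrays. Its difference of -0.065 ± 0.13 turned to 0.020 with quantile normalization. Rps27a is made as a fusion with ubiquitin, and its difference was -0.053 ± 0.13 in the brightest of its 3 probes. The probes of Rps27a ranged from -0.094 to 0.22, the widest range among the 50 genes with several probes, whose median range was 0.0535. In 12 of these 50 the probes had both signs. Of the 16 listed genes known from Diamond-Blackfan anaemia, an inherited failure of red cell production, 14 had a negative difference with a median of -0.053, and 4 of 16 had one with quantile normalization.

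The differences of the 8 paralogues and variants ranged from -0.062 to 0.76, beside -0.34 to 0.11 in the core genes. In 6 of them the difference was positive, 0 were called, and the median difference was 0.028 (0.070 with quantile normalization). Rpl39l, the paralogue of the exit tunnel protein Rpl39, had levels of -2.30 and -2.37 on the siScr arrays and -1.13 and -2.02 on the siErbB4 arrays. Both siErbB4 arrays lay above the siScr arrays, which were close together, but siErbB4 replicate 1 was far higher than replicate 2. The difference was 0.76 ± 0.34 (SE, n = 2 per group), a fold of 1.69, with a 95% interval of -0.17 to 1.69, an unadjusted limma p of 0.0867 and an adjusted p of 1.0. Without siErbB4 replicate 1 it was 0.31, and without siErbB4 replicate 2 it was 1.20.

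Rpl10l, a retrogene copy of Rpl10 that replaces it in male meiosis, had levels of -1.81 on both siScr arrays and -1.03 and -1.5 on the siErbB4 arrays. Here too siErbB4 replicate 1 was the highest and the groups did not overlap. The difference was 0.54 ± 0.21, a fold of 1.46, with a 95% interval of -0.033 to 1.12 and an unadjusted limma p of 0.059, the lowest of the 84 genes, and an adjusted p of 1.0. Its 2 probes gave 0.40 and 0.54, and without siErbB4 replicate 1 the difference was 0.31. Rps4l, listed by RefSeq as a transcribed pseudogene related to Rps4x, had levels of 3.19 and 3.07 in siScr and 3.65 and 3.17 in siErbB4, which overlapped. Its difference was 0.28 ± 0.22, and 0.037 without siErbB4 replicate 1.

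As with these 3 genes, the 8 pluripotent stem cell markers had their highest summed level on siErbB4 replicate 1. It was 4.65 and 4.74 on the siScr arrays and 5.30 and 4.90 on the siErbB4 arrays. Dppa5a weighs most in this sum, with levels of 4.22 on both siScr arrays and 4.87 and 4.43 on the siErbB4 arrays. The median level of the 8 was -0.14 and 0.15 in siScr and 0.47 and 0.089 in siErbB4. All 8 were well above background on all arrays, 7 had a positive difference, and 0 were called. In 5 of the 8 the siErbB4 arrays were both the higher, beside 13.1% of all features, and after normexp in 3, beside 11.3%. Pou5f1, a transcription factor of the pluripotent state, had levels of -1.94 and -1.33 in siScr and 0.015 and -1.45 in siErbB4, which overlapped. Zfp42, a marker of the same state, had levels of 0.65 and 1.03 against 1.71 and 1.22, which did not. These 2 had the highest differences of the 8, at 0.92 and 0.62. Nanog had the only negative one, at -0.13, with levels of -0.76 and -0.51 against -0.87 and -0.66. The 2 probes of Nanog gave -0.13 and 0.49. The part of such cells in the values of Rpl39l, Rpl10l and Rps4l was not tested.

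Rpl3l and Rpl3 were compared because the former replaces the latter in striated muscle. Rpl3l had levels of -5.26 and -4.76 on the siScr arrays and -5.46 and -4.55 on the siErbB4 arrays, from signals of 25.9, 32.3, 21.4 and 40.1, where the dimmest probe well above background had a signal of 9.14 to 12.0. Replicate 2 was higher than replicate 1 in both groups, by 0.49 and 0.91, or by 0.068 and 0.25 after normexp background correction. The groups overlapped. The difference was 0.0073 ± 0.39 with a 95% interval of -1.06 to 1.07. The levels of Rpl3, by its own probe, were those given above, and the probes of the 2 genes were not set against each other.

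The ratio of Rpl3l to Rpl3 within each array, relative to its siScr mean on the log2 scale, was -0.25 and 0.25 on the siScr arrays and -0.18 and 0.53 on the siErbB4 arrays. The groups overlapped, and their mean difference was 0.18, with a two-sided exact permutation p of 0.667, where 0.333 is the smallest p that 2 against 2 allows. It was -0.075 without siScr replicate 1 and -0.18 without siErbB4 replicate 2. The ratio was higher on replicate 2 than on replicate 1 by 0.50 in siScr and 0.71 in siErbB4. This depended on the handling of background. After normexp, replicate 2 minus replicate 1 in siScr and siErbB4 was 0.068 and 0.25 for Rpl3l, and 0.011 and 0.26 for Rpl3. The 12 cardiomyocyte markers were also higher on replicate 2, by a median of 0.64 in siScr (12 of 12) and 0.54 in siErbB4 (11 of 12). Their part in the values of Rpl3l was not tested.

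In the other 7 pairs of a paralogue with its core gene, the change of the ratio between the groups ranged from -0.10 to 0.76. Rpl39l over Rpl39 was 1.18 and 0.34 on the siErbB4 arrays, Rpl10l over Rpl10 was 0.82 and 0.41, and Rps4l over Rps4x was 0.64 and 0.11, all above both siScr arrays. These 3 pairs each had an exact permutation p of 0.333, the smallest possible, and mean changes of 0.76, 0.62 and 0.38. In the remaining pairs the groups overlapped. The change was -0.10 for Rpl22l1 over Rpl22, of which the core protein is known to hold the paralogue down, and 0.067 for Rps27l over Rps27, of which the former is a p53 target. It was 0.11 for Rpl36al over Rpl36a and -0.061 for Rpl7l1 over Rpl7, of which Rpl7l1 acts in ribosome assembly.

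**Figure D4:**
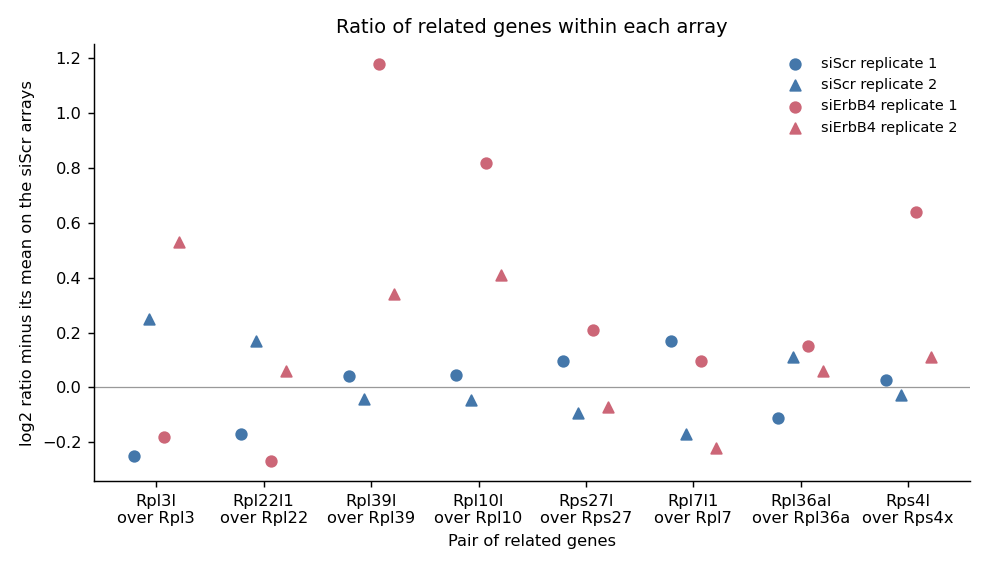
Ratio of each paralogue to its core gene within an array (y axis, log2, minus the mean of the siScr arrays) for 8 pairs (x axis), with 1 point per array. For Rpl39l, Rpl10l and Rps4l the siErbB4 arrays lie above the siScr arrays, with replicate 1 the higher, and for Rpl3l replicate 2 lies above replicate 1 in both groups (0.25 against -0.25 and 0.53 against -0.18).

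The retrocopies Rpl32l, Rpl37rt and Rps23rg1 had differences of -0.093, -0.011 and 0.039, each under its SE. Their transcripts are close copies of those of core genes, so their probes may also bind the core transcript, and their values are uncertain for this reason. The same limit may hold for Rpl10l, Rpl39l and Rps4l and for their ratios above, and it was not checked. Rps19bp1, which is also known as an activator of Sirt1, had levels of 1.74 and 1.51 in siScr and 1.91 and 1.68 in siErbB4, which overlapped, and a difference of 0.17 ± 0.17.

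Replicates of a group differed little in the ribosomal protein genes. Replicate 2 minus replicate 1 had a median size of 0.0871 in siScr and 0.0650 in siErbB4, against 0.245 and 0.195 over all features. Among the 1753 features at a mean level of 4 or more it was 0.165 and 0.108. Among the 77 ribosomal protein genes at such a level it was 0.0843 and 0.0625. For the core genes it was 0.0774 and 0.0586. A replicate difference of 0.58 or more was seen in 0 of the 84 genes in siScr (18.7% of all features). In siErbB4 it was seen in 2 (14.5%), Rpl3l at 0.91 and Rpl39l at -0.89. After normexp background correction these were 0.25 and -0.82. Of the 1753 features at a level of 4 or more, 89 in siScr and 142 in siErbB4 reached 0.58. With signs kept, the median over the 84 genes was 0.025 in siScr and -0.043 in siErbB4, and with quantile normalization it was -0.10 and -0.13.

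Among the core genes the replicate differences ranged from -0.32 to 0.38 in siScr and from -0.19 to 0.20 in siErbB4. Rpl7a was at the top in siScr, with levels of 5.42 and 5.80 on replicates 1 and 2. Rpl22l1, a paralogue, also differed there, with levels of 4.78 and 5.14, and with 4.79 and 5.03 in siErbB4, so that replicate 2 was the higher in both groups. Across the 84 genes the replicate differences of both groups correlated at r = 0.459, against 0.679 over all features. Across the 72 core genes r was 0.33, and across the 12 other genes 0.77. Across the 1753 features at a level of 4 or more it was 0.707. These are correlations across genes of the same 4 arrays, and genes are not independent replicates.

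**Figure D5:**
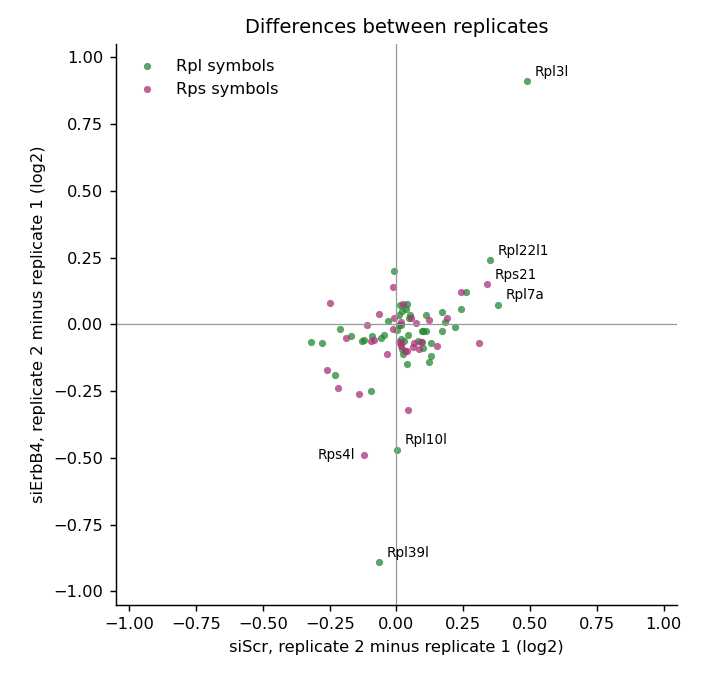
Replicate 2 minus replicate 1 in siErbB4 (y axis, log2) against the same in siScr (x axis, log2), with 1 point per gene and labels on genes beyond 0.33 in either group. Most points lie near 0, with Rpl3l at 0.49 and 0.91 and Rpl39l at -0.065 and -0.89.

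Other genes of the ribosome and its production were described for comparison, and limma called 0 of them, with 0 also at an unadjusted p of 0.05. The 7 cytosolic ribosome components without such a symbol, among them Rpsa and the stalk proteins, had a median difference of -0.087 with all 7 negative, and 4 negative with quantile normalization. Rplp0, the base of the stalk, had levels of 7.35 and 7.44 in siScr and 7.25 on both siErbB4 arrays, a difference of -0.15 ± 0.13. The 16 translation factors whose messenger RNAs share the oligopyrimidine tract had a median of -0.019, and 0.058 with quantile normalization. Eef2, which moves the ribosome along the messenger RNA, had levels of 6.74 and 6.72 against 6.39 and 6.54, without overlap, and a difference of -0.26 ± 0.14 (limma adjusted p = 1.0).

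The 40 ribosome biogenesis genes had a median difference of 0.043, with 27 positive, and 0.050 with quantile normalization. In 9 of them the siErbB4 arrays were both higher than either siScr array and in 0 both lower, beside 13.1% and 15.9% of all features. Sbds and Efl1, which together release Eif6 from the new large subunit, had differences of 0.24 ± 0.14 and 0.28 ± 0.17. Myc, a transcription factor that drives ribosome production, had levels of -2.25 and -2.27 in siScr and -1.77 and -1.98 in siErbB4, without overlap, a difference of 0.39 ± 0.15 with an unadjusted limma p of 0.0554 and an adjusted p of 1.0. It is 1 of 11 listed genes of growth control, whose median was 0.028. Of these, Rps6kb2, an S6 kinase, had a difference of -0.33 ± 0.17, with levels of -0.015 and -0.34 against -0.52 and -0.50. The 77 mitochondrial ribosomal protein genes tested, of 78 on the array, had a median of 0.019 with 44 positive, and 46 positive with quantile normalization. Their replicate differences had a median size of 0.133 in siScr and 0.122 in siErbB4.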

How the data were processed

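Total RNA of 4 samples, 2 siScr and 2 siErbB4, was measured on Agilent 1-colour arrays, with labelled copy RNA made from 200 ng. According to the submitters' processing notes and the headers, the program Agilent Feature Extraction 10.7.1.1 read the images. Per the file headers, the deposited processed intensity of each spot had its local background subtracted and was not scaled between arrays. The median intensities of spot and background and the flags that mark a spot as outlying, saturated or well above background were deposited beside it. The authors' deposited value table holds log2 processed signals relative to the 75th percentile of each array, as a comparison with the scanner values showed (largest difference 0.00328, column medians -3.81 to -3.86).

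Of 44397 spots, 1377 controls and the outlier flags (131 to 179 per array) were left out, 0 spots were saturated, and log2 values of spots of a probe were averaged. Levels are on the scale of that table. Probes well above background on both arrays of a group were kept (25690 of 39429). Symbols came from RefSeq accessions (assembly GRCm38.p6), which named 27508 probes, and the brightest probe of a gene was used, leaving 20726 features. The siErbB4 and siScr groups were then tested in limma 3.58.1 (R 4.3.3, lmFit and eBayes, two-sided, Benjamini-Hochberg adjustment), which had 2 residual degrees of freedom and was tested on simulated data. The number of arrays limits the precision. Genes named are the paralogue pairs, the 6 lowest p in each direction, the 3 largest replicate differences per group, and the lowest p of each list. Rpl11, Rpl8, Rpl12, Rpl5, the retrocopies, Pou5f1, Zfp42, Nanog and Dppa5a were named outside this rule after their values were seen. Some genes that the rule names are left out of the text. Members and gene lists were chosen with earlier results of these data known.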

Additional observations from a re-analysis of the deposited data

How the results depend on the processing

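The alternatives were normexp background correction (offset 50), quantile or array-median scaling, other filters on dim probes, the mean of a gene's probes, flagged spots kept, the authors' deposited value table, a replicate block and leaving out each array. No feature and none of the 84 genes was called by limma under any of them. The counts of negative genes and of genes without overlap, and their alternatives, were added after seeing the data.

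With quantile normalization the median difference of the 84 genes was 0.016, 30 were negative, 2 had both siErbB4 arrays below both siScr arrays, and the median replicate differences were -0.10 in siScr and -0.13 in siErbB4. The differences of Rpl23 (0.022), Rpl36a (0.0024), Rpl39 (0.047), Rpl7 (0.090), Rps27 (0.018), Rps27a (0.049) and Rps6 (0.020) then turned positive. Rpl39 (0.024) and Rpl7 (0.026) also did with the array median. With the mean of probes Rpl14 was -0.00092 and Rps27a 0.024.

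Leaving out 1 array at a time gave a median difference of -0.074 to -0.029, 53 to 69 negative genes, and 34 to 55 genes without overlap below (31.6% to 36.3% of all features, since fewer arrays overlap less often). The count was 55 without siScr replicate 1 and without siErbB4 replicate 1. The ratio of Rpl3l to Rpl3 ranged from -0.18 to 0.53. Signs turned in 1 or more of these fits for the ratio (-0.075 without siScr replicate 1 and -0.18 without siErbB4 replicate 2) and for 11 genes. Their ranges were -0.000063 to 0.22 for Rpl14, -0.23 to 0.13 for Rpl22l1, -0.14 to 0.039 for Rpl23, -0.035 to 0.10 for Rpl36al, -0.030 to 0.024 for Rpl39 and -0.45 to 0.46 for Rpl3l. They were -0.26 to 0.0047 for Rpl4, -0.12 to 0.12 for Rpl7, -0.26 to 0.12 for Rpl7a, -0.19 to 0.065 for Rpl7l1 and -0.11 to 0.15 for Rps27l. The cause was not tested. The other 454 values computed under alternatives kept their direction, or, for counts and medians, their size.

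The replicate numbers of the 2 groups are shared, but nothing says that they mark a common culture, and 2 pairs are too few to tell. Deviations of arrays with the same number correlated at 0.679 over all features and 0.459 over the 84 genes. With the replicate block limma called 0 features, 1547 had an unadjusted p under 0.05 (366 without), as did 2 of the 84 genes (0 without), whose lowest adjusted p was 0.641. The median difference (-0.053) and the ratio of Rpl3l to Rpl3 (0.18) did not move. Signal over background limits Rpl3l most, whose signals of 21.4 to 40.1 lay near those of the dimmest probes well above background (9.14 to 12.0).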
